A study of Mus musculus with 6 samples.

Results

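Hair follicle stem cell genes and genes of the hedgehog pathway were followed in RNA-seq of mouse back epidermis with and without Spry1. They are 32 genes of the 54532 in the deposited table, matched by gene name: 14 genes of the bulge, 2 of the isthmus and infundibulum above it, 8 of the hair germ and the hair-forming lineages, and 8 of the hedgehog pathway. All 32 were in the table. Controls were Spry1flox/flox mice, which carry Spry1 between recombination sites. Knockouts were Spry1flox/flox K14-Cre-ERT2 mice, whose tamoxifen-activated recombinase is driven by the keratin 14 promoter, active in the basal layer of the epidermis and in follicle keratinocytes. Each group had 3 samples, and all were given tamoxifen by mouth (0.1 mg per g, 4 times in each of 4 weeks). Age is not in the labels, nor is it stated that each sample is 1 animal; the p-values therefore cover the spread among these samples, part of which may be technical. Cre was present only together with floxed Spry1, and what Cre alone does cannot be told apart from the loss of Spry1.

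The hair follicle renews itself in cycles of growth and rest. Its stem cells lie in the bulge, the part of the outer root sheath below the sebaceous gland, and are marked by CD34 and by transcription factors such as SOX9, NFATC1 and LHX2. The hair germ just below them holds P-cadherin-rich cells that start the next hair. Hedgehog signalling feeds this growth: the ligand SHH binds the receptor PTCH1, which then releases SMO, SMO acts against SUFU, and the GLI factors turn on targets that include Gli1, Ptch1 and Hhip themselves. Those 3 targets are widely used as readouts of pathway activity.

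The samples matched their labels for Spry1, which read 25.8, 28.2 and 34.4 FPKM (fragments per kilobase of gene, scaled to sequencing depth) in control samples and 1.06, 1.49 and 1.28 in knockout samples. Reads recovered from the FPKM values summed to 18383323 to 21024716 per sample. The scaling totals that the FPKM values imply differed from these sums. They ran from 18226774 to 19491038 in controls and from 16451722 to 20095122 in knockouts. Every knockout total was below the recovered reads of its sample, most so in Spry1_KO replicate 3 (16451722 against 18670248). In Control replicate 3 the total was above them (19491038 against 18949500). The knockout differed from the control in a large part of the transcriptome: of the 12629 genes that averaged 1 FPKM or more, 54.0% passed the test (limma on log2(FPKM + 1), Benjamini-Hochberg adjusted p under 0.05), 29.6% higher and 24.4% lower. Counts below are to be read against those shares. Control replicate 3 stood apart on the second principal component (8.5% of the variance). Scaling every sample to the same FPKM sum moved the median log2 fold change of all genes from 0.032 to -0.21 and turned 3736 higher and 3079 lower genes into 2038 and 4506. The limma-voom fit on recovered reads gave 2914 higher and 3802 lower genes. In bulk tissue, fewer cells of a type and less RNA per cell cannot be told apart.

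The follicle and hedgehog genes, chosen with earlier results of these data known, moved up more often than down. No test was made over them as a list. Of the 32, 27 averaged 1 FPKM or more and were tested. Of those, 14 rose and 3 (Lgr6, Msx2 and Ptch1) fell in the knockout. Gli2 and Tcf7l1, counted as higher, met that filter only through the knockout samples, and Msx2, counted as lower, only through the controls. The median log2 fold change over the 27 was 0.49, against 0.032 over all tested genes. In 16 of them every knockout sample lay above every control sample and in 3 every knockout sample lay below, where 34.9% and 29.4% of all tested genes did so (64.2% in either direction). Scaled to the same FPKM sum the counts were 11 higher and 4 lower, and with both Control replicate 3 and Spry1_KO replicate 2 left out they were 12 and 3. The authors' table assigns 17 of the 32 to a transcription factor family, and of those 8 rose, 1 fell, 7 did not pass and 1 was below the filter. Of the other 15, 6 rose, 2 fell, 3 did not pass and 4 were below the filter.

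**Figure D1:**
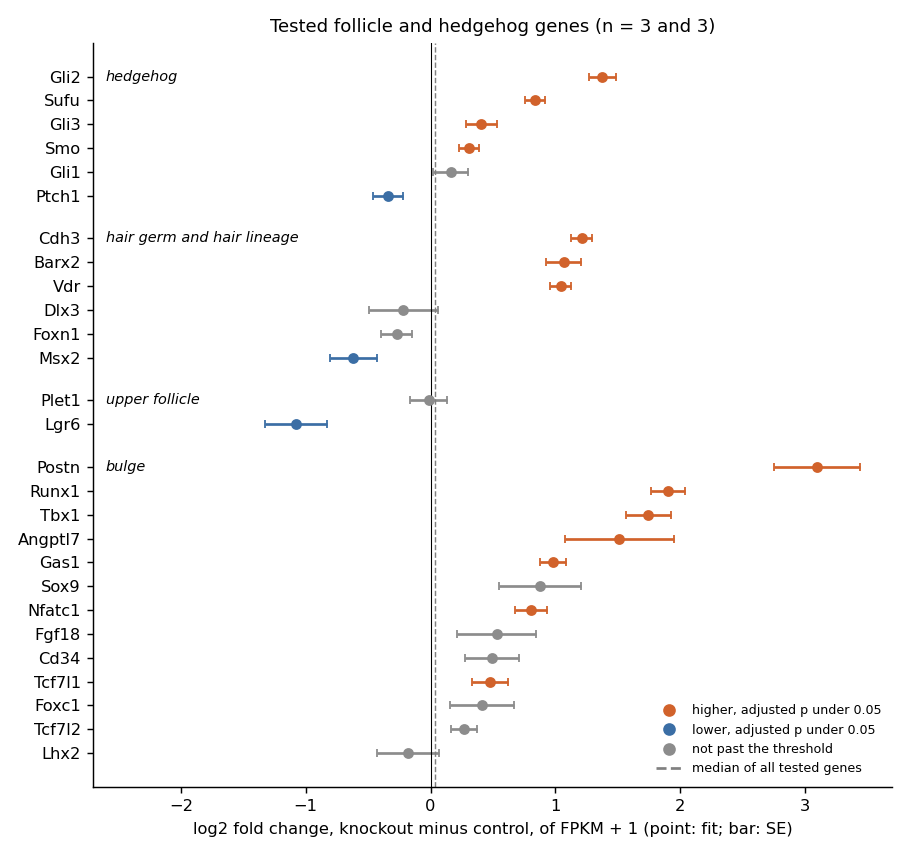
Log2 fold change (knockout minus control, of FPKM + 1) of the 27 tested follicle and hedgehog genes, by compartment, from 3 samples of each genotype; points are fitted values and bars are SE. Postn stands furthest to the right at 3.09 and Lgr6 furthest to the left at -1.08, and the dashed line marks the median of all tested genes.

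The named follicle markers Cd34, Lgr5 and Lgr6 were all detected. Cd34, a surface glycoprotein of bulge cells and of endothelium, read 5.89, 3.17 and 3.18 FPKM in control samples and 7.19, 5.18 and 5.60 in knockout samples. The highest control overlapped the knockouts, and the difference did not pass (log2 fold change 0.49, 95% interval -0.028 to 1.01, limma adjusted p of 0.0971). With replicate number as a block it passed (limma adjusted p of 0.0282), as it did with Control replicate 1 left out (0.73, 0.01). That sample also had the highest endothelial signal: 10 endothelial markers summed to 9.97 FPKM there, 4.11 and 3.07 in the other controls and 2.09 to 4.38 in the knockouts, with none at 0 in any sample. The part of endothelial cells in the Cd34 values was not tested. Lgr5, a receptor of the lower bulge and germ that strengthens Wnt signals, was low everywhere. It read 0.365 to 0.647 FPKM in controls and 0.598 to 0.893 in knockouts, or 73 to 159 recovered reads per sample. Lgr6, its relative in the isthmus and interfollicular epidermis, was the more abundant of the pair in every sample.

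Among the bulge genes, 7 of the 13 tested rose and none fell, with a median log2 fold change of 0.81. Postn, which encodes the matrix protein periostin, changed most. Control samples read 29.6, 36.3 and 16.4 FPKM and knockout samples 310.9, 157.4 and 249.6. Each knockout sample was thus several-fold above the highest control, and the ratio of the means was 8.72 (log2 fold change 3.09 ± 0.34, SE; adjusted p of 0.000454 in limma). Postn is also made by fibroblasts. Of 10 fibroblast markers 7 were tested, 4 were lower and 1 was higher; their summed level ran from 14.6 to 22.6 FPKM in controls and from 26.3 to 29.9 in knockouts. Within that sum only Fbln1 rose, from 2.15 to 21.3 FPKM, and each of the other markers averaged less in the knockouts. Dpt, Col6a1, Col1a2 and Col3a1 fell (3.30 to 0.649, 4.21 to 2.30, 1.91 to 0.513 and 2.48 to 0.752 FPKM). Col1a1 read 2.56 and 0.873 FPKM without passing (limma adjusted p of 0.0525). Dpt, Col1a2, Col3a1 and Col1a1 met the filter of 1 FPKM only through the controls. The part of fibroblasts in the Postn values was not tested. Mfap5 was at 0 in 1 sample and no other fibroblast marker was at 0 in any.

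Runx1, a Runt-domain factor that promotes the exit of bulge stem cells from rest, read 1.01, 1.43 and 1.41 FPKM in controls and 8.86, 6.48 and 7.38 in knockouts. The 2 groups were far apart, with a ratio of 5.89 (log2 fold change 1.90 ± 0.14, SE; adjusted p of 9.07e-05 in limma). Runx1 is expressed by leukocytes as well. The pan-leukocyte gene Ptprc fell from 3.64 to 2.05 FPKM (chosen after its values were seen; adjusted p of 0.0244 in limma, lost when Control replicate 1, Control replicate 2 or Spry1_KO replicate 2 was left out, at 0.0574, 0.0754 and 0.0584), and over the 10 leukocyte markers 7 were lower and 2 higher. Those that rose were Lyz2 (7.37 to 33.5 FPKM) and C1qb (2.17 to 29.3 FPKM), genes of macrophages. Csf1r, on the same list and expressed by macrophages and by Langerhans cells, fell from 18.2 to 7.62 FPKM (adjusted p of 0.000802 in limma). The Langerhans cell gene Cd207, also on the list, fell from 47.5 to 9.06 FPKM (adjusted p of 0.000609 in limma). Itgam, expressed by macrophages as well, averaged 0.827 and 0.573 FPKM and was below the filter. The part of macrophages in the Runx1 values was not tested. The summed leukocyte markers ran from 665 to 1070 FPKM in controls and from 240 to 394 in knockouts. Cd74, which averaged 729 and 238 FPKM, made up most of that sum in every sample.

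Tbx1, a T-box factor of quiescent bulge cells, read 5.38, 3.61 and 5.16 FPKM in controls and 15.8, 22.6 and 16.2 in knockouts, a ratio of 3.86 with no overlap (log2 fold change 1.75 ± 0.18, SE; adjusted p of 0.000341 in limma). Nfatc1, a calcium-regulated factor that holds bulge stem cells at rest, read 9.28, 7.28 and 9.30 FPKM in controls and 13.7, 17.1 and 16.7 in knockouts. It rose by a ratio of 1.84 (limma adjusted p of 0.00198). Gas1, which encodes a membrane protein that binds SHH, read 26.9, 31.0 and 25.6 FPKM in controls and 50.7, 56.1 and 60.9 in knockouts. The ratio of its means was 2.01 (limma adjusted p of 0.000423); the antisense-strand transcript Gm48488 shares 19.9% of its exon bases and read 0.549 and 0.591 FPKM. Postn, Runx1, Tbx1, Nfatc1 and Gas1 passed under every one of the 15 alternatives run.

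The other 2 bulge genes that rose rested on fewer samples. Angptl7, a secreted angiopoietin-like protein, read 2.49, 1.65 and 0.928 FPKM in controls and 9.16, 9.94 and 2.71 in knockouts, so that Spry1_KO replicate 3 lay close to the highest control. Its log2 fold change was 1.51 ± 0.44 (SE; adjusted p of 0.024 in limma), and the call was lost without Control replicate 2 (0.0561), Control replicate 3 (0.0629), Spry1_KO replicate 1 (0.0802) or Spry1_KO replicate 2 (0.0749). Tcf7l1, a TCF factor that represses Wnt targets in stem cells, read 1.09, 0.766 and 0.981 FPKM in controls and 1.32, 1.91 and 1.94 in knockouts. It rose by 0.48 on the log2 scale (limma adjusted p of 0.0286), and this was lost when Control replicate 2 (0.0854) or either of Spry1_KO replicates 2 (0.091) and 3 (0.0934) was left out, and scaled to the same FPKM sum (0.102). Its relative Tcf7l2 read 1.07 to 1.14 FPKM in controls and 1.46 to 1.64 in knockouts without overlap but did not pass (limma adjusted p of 0.0686). With array weights Tcf7l2 passed (0.0438).

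**Figure D2:**
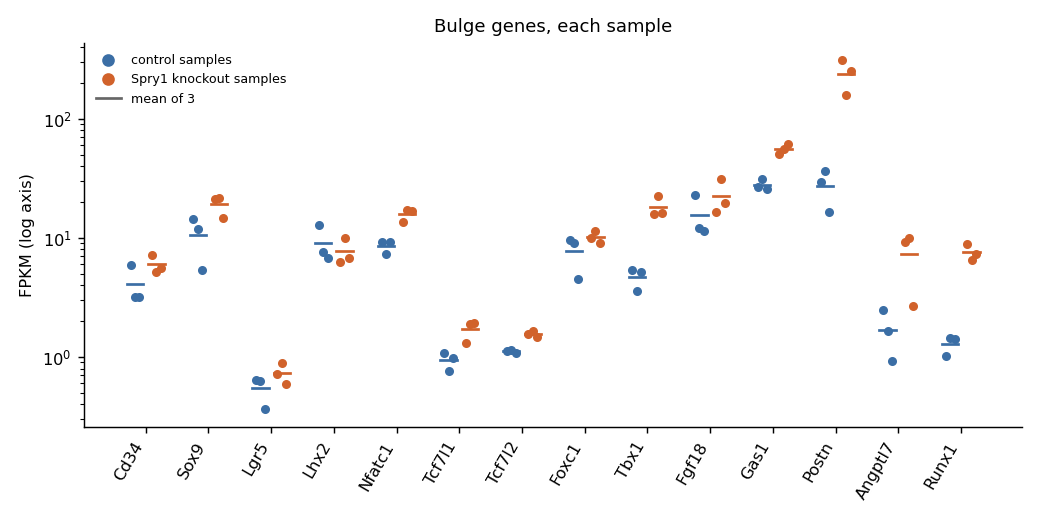
FPKM of the 14 bulge genes on a log axis, 1 point per sample (3 controls and 3 Spry1 knockouts) with the mean of each group as a bar. The groups are apart for Runx1, Tbx1, Gas1, Nfatc1 and Postn and overlap for Cd34, Lhx2, Foxc1, Fgf18 and Lgr5.

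Several defining bulge factors did not pass. Sox9, required to specify bulge cells, read 14.4, 11.8 and 5.37 FPKM in controls and 21.1, 21.6 and 14.6 in knockouts. The groups did not overlap, though the gap between the nearest samples was small (log2 fold change 0.88, 95% interval 0.09 to 1.66, limma adjusted p of 0.0597). Sox9 passed without Control replicate 1 (1.13, 0.0329), with array weights (0.0358) and with replicate number as a block (0.0139). Lhx2, a LIM-homeodomain factor of bulge and germ, read 12.7, 7.64 and 6.74 FPKM in controls and 6.33, 9.96 and 6.82 in knockouts. Its groups overlapped and the interval of its log2 fold change ran from -0.77 to 0.40. Foxc1, which restrains activated bulge cells, read 4.49 to 9.64 and 9.10 to 11.5 FPKM. Fgf18, a ligand that keeps follicles at rest, read 11.4 to 23.1 and 16.4 to 31.3 FPKM; it passed without Control replicate 1 (log2 fold change 0.84, limma adjusted p of 0.0424). Control replicate 3 was the lowest sample for Sox9, Foxc1 and Angptl7, and 8 sebaceous gland markers summed to 199 FPKM there, against 337 and 436 in the other controls and 301 to 440 in the knockouts. The part of tissue makeup in those values was not tested.

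Of the 2 upper follicle genes, 1 fell and 1 did not pass. Lgr6 read 12.0, 15.1 and 24.0 FPKM in controls and 8.61, 5.86 and 7.35 in knockouts. Every knockout sample was below every control, at a ratio of 0.428 (log2 fold change -1.08 ± 0.25, SE; adjusted p of 0.00973 in limma). Without Control replicate 3 and Spry1_KO replicate 2 together, its log2 fold change was -0.69, still past the threshold. Plet1, a surface protein of the isthmus, read 13.4 to 18.5 FPKM in controls and 14.5 to 18.9 in knockouts. Its log2 fold change was -0.016 with an interval from -0.37 to 0.34, and its sign turned under some settings. An annotated antisense transcript, Plet1os, shares 13.4% of its exon bases and read 1.16 and 0.523 FPKM, and its reads cannot be told apart from those of Plet1 here.

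Of the 6 tested genes of the hair germ and hair lineages, 3 rose and 1 fell. Cdh3, which encodes P-cadherin, the adhesion molecule of the germ and of basal keratinocytes, read 10.2, 10.9 and 11.4 FPKM in controls and 28.6, 25.6 and 25.0 in knockouts. Samples of a genotype lay close together and the ratio was 2.44 (limma adjusted p of 8.68e-05). Barx2, a homeodomain factor of the follicle, read 27.2, 29.5 and 23.6 FPKM in controls and 50.6, 68.7 and 53.0 in knockouts (ratio 2.15, limma adjusted p of 0.000945). Vdr, the vitamin D receptor, without which follicles fail to cycle, read 19.3, 21.6 and 22.7 FPKM in controls and 46.5, 42.5 and 44.7 in knockouts (ratio 2.10, limma adjusted p of 0.000163). All 3 are expressed beyond the follicle, in epidermal keratinocytes, whose basal layer genes moved both ways. The keratins Krt14 and Krt5 rose, from 2706 to 11060 and from 3962 to 6878 FPKM. Krt5 did not pass without a filter (limma adjusted p of 0.339), with a filter of 0.1 FPKM (0.055) or with replicate number as a block (0.0697). It also did not pass with both Control replicate 3 and Spry1_KO replicate 2 left out (0.0623). The integrin subunit Itga6 fell from 55.0 to 39.8 FPKM (adjusted p of 0.00732 in limma) and the p63 gene Trp63 from 83.6 to 64.2 FPKM (0.0491), the latter lost when any 1 sample other than Control replicate 3 was left out (0.0541 to 0.144). Over the 8 epidermal keratinocyte markers 4 were higher and 3 lower, none was at 0, and their sum ran from 12500 to 14000 FPKM in controls and from 22100 to 27700 in knockouts; the part of these cells in the values was not tested.

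Msx2, a homeobox gene of the hair matrix, read 1.74, 1.52 and 1.63 FPKM in controls and 0.668, 1.20 and 0.371 in knockouts. It fell by 0.62 on the log2 scale (limma adjusted p of 0.0288), a call lost when any 1 sample other than Spry1_KO replicate 2 was left out (0.0525 to 0.0826). Its paralogue Msx1 was lower in level, at 0.195, 0.124 and 0.133 FPKM in controls and 0.434, 0.540 and 0.393 in knockouts. These are 7 to 11 and 20 to 29 recovered reads, below the filter, and with a filter of 0.1 FPKM Msx1 had a limma adjusted p of 0.017. The knockout samples were thus all low for Msx2 and all high for Msx1. Foxn1 and Dlx3, factors of hair shaft differentiation, read 6.57 to 8.56 and 3.58 to 7.22 FPKM in controls and 5.30 to 6.65 and 3.36 to 6.26 in knockouts, and neither passed (limma adjusted p of 0.109 and 0.541). Foxn1 passed when scaled to the same FPKM sum (log2 fold change -0.51, limma adjusted p of 0.0361) and Dlx3 without Control replicate 3 and Spry1_KO replicate 2 together (-0.66, 0.0307). Fgf5, the signal that ends hair growth, was at 2 to 15 reads per sample and was not tested.

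**Figure D3:**
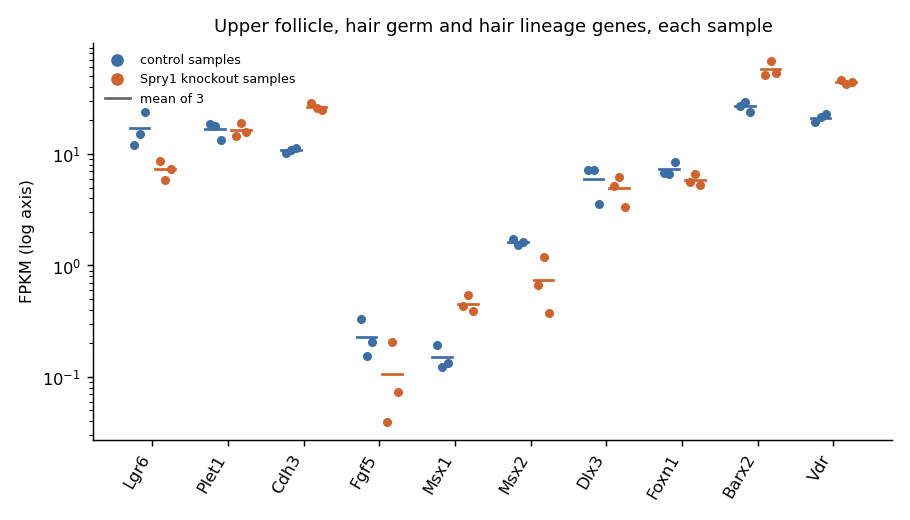
FPKM of the 2 upper follicle genes and the 8 genes of the hair germ and hair lineages on a log axis, 1 point per sample (3 per genotype), with group means as bars. Knockout points sit below control points for Lgr6 and Msx2 and above them for Cdh3, Barx2, Vdr and Msx1.

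Of the 6 hedgehog genes tested, 4 rose (Gli2, Gli3, Sufu and Smo), 1 fell (Ptch1) and Gli1 did not pass. The ligand gene Shh was nearly absent, with 0, 5 and 1 reads in the controls and 1, 0 and 0 in the knockouts. Hhip, a decoy receptor and target gene, had 14, 2 and 17 reads in the controls and 5, 5 and 3 in the knockouts. Neither can be compared at this depth.

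Gli2, the main activator of hedgehog targets in skin, changed most. It read 0.535, 0.502 and 0.441 FPKM in controls and 3.10, 2.73 and 2.78 in knockouts, which is 59 to 67 reads against 314 to 428. Gli2 thus met the filter of 1 FPKM only through the knockout samples. No pair of samples came near across the genotypes, and the ratio was 5.83 (log2 fold change 1.37 ± 0.11, SE; adjusted p of 0.000129 in limma). Gli3, mostly a repressor, read 0.990, 0.935 and 1.27 FPKM in controls and 1.94, 1.73 and 1.55 in knockouts. It rose by 0.41 on the log2 scale (limma adjusted p of 0.0295), a call lost without Control replicate 1 (0.0841), Control replicate 2 (0.0875), Spry1_KO replicate 1 (0.103) or Spry1_KO replicate 2 (0.0754) and scaled to the same FPKM sum (0.226). Gli1, an activator and target, read 1.01, 0.712 and 1.22 FPKM in controls and 1.20, 1.12 and 1.30 in knockouts. These overlapped, and its log2 fold change of 0.16 had an interval from -0.17 to 0.50.

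The ratio of Gli2 to Gli1 within a sample was 0.53, 0.705 and 0.361 in the controls and 2.59, 2.44 and 2.13 in the knockouts. That of Gli2 to Gli3 was 0.541, 0.536 and 0.346, and 1.60, 1.58 and 1.80. Gli2 thus went from the least to the most abundant of the 3 Gli transcripts per length, in each of the samples. The two-sided exact permutation p was 0.1 for each ratio, the smallest that 3 against 3 samples allow, and 5 such ratios were computed.

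Sufu, the cytoplasmic inhibitor that holds GLI proteins, read 3.56, 3.63 and 3.34 FPKM in controls and 7.40, 7.19 and 6.62 in knockouts. Its spread within a genotype was small beside the ratio of 2.01 (log2 fold change 0.84 ± 0.08, SE; adjusted p of 0.000277 in limma). Smo, the signal transducer, was the most abundant of the pathway's 8 genes here, at 15.5, 16.97 and 18.3 FPKM in controls and 20.7, 21.7 and 21.1 in knockouts. It rose by only 0.31 on the log2 scale (limma adjusted p of 0.019). That call depended on the scaling: its log2 fold change was 0.043 (limma adjusted p of 0.792) with equal FPKM sums and 0.19 (0.133) in limma-voom on recovered reads, and it did not pass without Control replicate 1 (0.0672), Control replicate 2 (0.0517), Spry1_KO replicate 2 (0.0657) or Spry1_KO replicate 3 (0.0505). Ptch1, the receptor and target, read 2.56, 2.47 and 3.13 FPKM in controls and 2.12, 2.04 and 1.67 in knockouts, with no overlap. It fell by 0.34 on the log2 scale, at the edge of the threshold (limma adjusted p of 0.0477), and no longer passed when any 1 sample was left out (0.0643 to 0.137). Sufu and Gli2 passed under every alternative run.

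**Figure D4:**
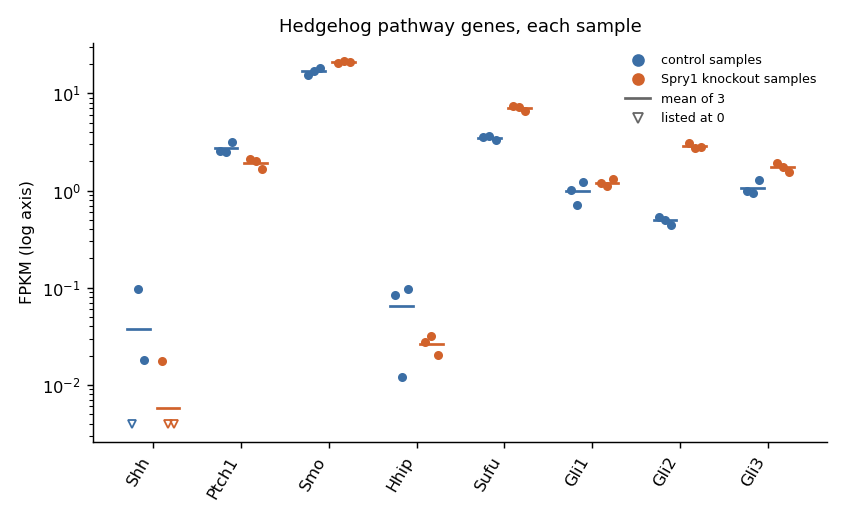
FPKM of the 8 hedgehog pathway genes on a log axis, 1 point per sample (3 per genotype), with group means as bars and open triangles for samples listed at 0. Knockout points lie above control points for Smo, Sufu, Gli2 and Gli3 and below them for Ptch1, and Shh and Hhip lie below 0.1 FPKM in every sample.

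Promoter sequence is shown for the members with the largest rises in the bulge and hedgehog groups, Postn and Gli2, and for Sufu. RefSeq promoters (GRCm38.p6) were found for 24 of the 32 genes, 29 start sites in all. Each line gives the 250 bases before a start site, 5' to 3' on the gene's strand, with CG pairs and any TATAAA in capitals. Gli2 lies on chromosome 1 (118834132 to 119053619, minus strand), Sufu on chromosome 19 (46396896 to 46488804, plus strand) and Postn on chromosome 3 (54361109 to 54391037, plus strand), all in GRCm38. The windows are chr1:119053620-119053869, chr19:46396646-46396895 and chr3:54360857-54361106, and none overlaps an annotated exon.
Gli2: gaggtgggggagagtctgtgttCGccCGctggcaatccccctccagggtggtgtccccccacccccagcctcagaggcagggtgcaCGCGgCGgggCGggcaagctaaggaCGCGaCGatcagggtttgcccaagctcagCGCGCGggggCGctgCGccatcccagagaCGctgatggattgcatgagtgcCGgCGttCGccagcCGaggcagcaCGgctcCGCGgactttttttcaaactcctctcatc
Sufu: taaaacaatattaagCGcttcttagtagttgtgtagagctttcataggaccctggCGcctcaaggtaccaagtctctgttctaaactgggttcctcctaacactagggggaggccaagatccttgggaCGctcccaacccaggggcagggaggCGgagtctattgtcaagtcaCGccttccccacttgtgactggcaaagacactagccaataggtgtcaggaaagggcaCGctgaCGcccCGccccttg
Postn: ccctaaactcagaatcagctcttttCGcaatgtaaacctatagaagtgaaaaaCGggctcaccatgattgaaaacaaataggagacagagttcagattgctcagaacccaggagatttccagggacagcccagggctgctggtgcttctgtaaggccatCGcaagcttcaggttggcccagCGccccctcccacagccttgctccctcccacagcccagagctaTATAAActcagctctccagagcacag

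The 3 windows differ in kind. The Gli2 window holds 22 CG pairs and no TATAAA, the Sufu window 8 CG pairs and none, and the Postn window, from the second of its 2 listed starts, 4 CG pairs and a TATAAA beginning 26 bases before the start. Over all 29 windows the median was 16 CG pairs, against 6 over the 32851 promoters of the same length. Some of the 29 overlap annotated exons. The windows of Gas1 and Gli3 lie wholly in exons of genes on the opposite strand. Those of Msx2 and the second Lhx2 start lie wholly in exons of the gene itself. The Tcf7l1 window overlaps its own exons by 209 bases and the first Runx1 window by 75. Of the 29 windows 3 held TATAAA on either strand, where 12.4% of all promoters did. A match to the GLI motif GACCACCCA, on either strand, was in none of the 29 (0.225% of all promoters), nor was one to TGTGGTT for RUNX factors (4.4%) or CTTTGAA for TCF factors (4.46%), and 1, that of Plet1, held TGANTCA for AP-1 (6.75%). These letters were looked for in this window only.

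Other genes of the hedgehog pathway moved both ways. Of 31 listed, 21 were tested, 3 rose and 4 fell, with a median log2 fold change of -0.0013. Boc, a co-receptor that binds SHH, rose from 10.2 to 18.7 FPKM (limma adjusted p of 0.00473), while its relative Cdon fell from 4.45 to 2.19 FPKM (0.0129) and Disp1, which releases SHH from the cells that make it, from 2.12 to 0.984 FPKM (0.00564). Boc did not pass with equal FPKM sums (0.0557). Disp1 met the filter of 1 FPKM only through the controls. Csnk1a1, a kinase that marks GLI proteins for processing, rose from 52.9 to 85.1 FPKM (limma adjusted p of 0.000962). The other 3 changed by little: Fbxw11 rose by 0.24 on the log2 scale, and Arl13b and Mgrn1 fell by 0.24 and 0.34. Each of them lost its call without any of several single samples, Fbxw11 and Arl13b without 5 of the 6 and Mgrn1 without any 1 of the 6.

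Genes often named as hedgehog targets beside Gli1, Ptch1 and Hhip did not share a direction. Of 9 listed, 7 were tested, 2 rose and 3 fell. Ccnd2, a G1 cyclin, fell from 41.9 ± 1.47 to 14.6 ± 0.793 FPKM (SD, n = 3 each; limma adjusted p of 2.88e-05). Jag2, a Notch ligand, fell from 54.6 to 26.0 FPKM (0.00331), and Bcl2 by 0.36 on the log2 scale, a call lost without any 1 sample (0.0528 to 0.0914). Foxm1, a factor of mitotic genes, rose from 1.76 to 6.65 FPKM (0.00205) and Sfrp1, a Wnt antagonist also found in the bulge, from 12.6 to 26.4 FPKM (0.0018). Ccnd1 averaged 19.6 and 18.9 FPKM and did not pass.

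Among 13 other bulge genes, 12 were tested, 6 rose and 2 fell. Tnc, which encodes the matrix protein tenascin C, went from 0.685 ± 0.200 to 15.1 ± 4.83 FPKM (SD, n = 3 each; log2 fold change 3.21, limma adjusted p of 0.000103). Dkk3, Wif1 and Fst, secreted antagonists of Wnt or activin signals, rose from 5.02 to 23.3, from 1.30 to 4.86 and from 9.97 to 20.1 FPKM. Wif1 is also on the list of dermal papilla markers. Tnc met the filter of 1 FPKM only through the knockouts. The 2 that fell were Krt15, a keratin of bulge and basal cells that averaged 3323 FPKM in controls and 779 in knockouts (limma adjusted p of 0.000175), and Axin2, a Wnt target that averaged 17.8 and 7.40 FPKM (0.00292). Krt15 and Nfatc1, both used to mark bulge cells, thus changed in opposite directions.

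Among 10 other genes of the upper follicle, all tested, 2 rose and 3 fell. Krt17, a keratin of the outer root sheath and of injured epidermis, rose from 766 to 2193 FPKM (adjusted p of 0.0024 in limma), and Sostdc1, a BMP and Wnt antagonist, by 0.92 on the log2 scale. Lrig1, a feedback inhibitor of EGF receptors that marks the junction of follicle and sebaceous gland, fell from 33.7 to 17.4 FPKM (limma adjusted p of 0.000825). Gata6 and Atp6v1c2 fell by 0.69 and 0.47, and both calls were lost without any 1 sample other than Control replicate 3 (0.0719 to 0.115).

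**Figure D5:**
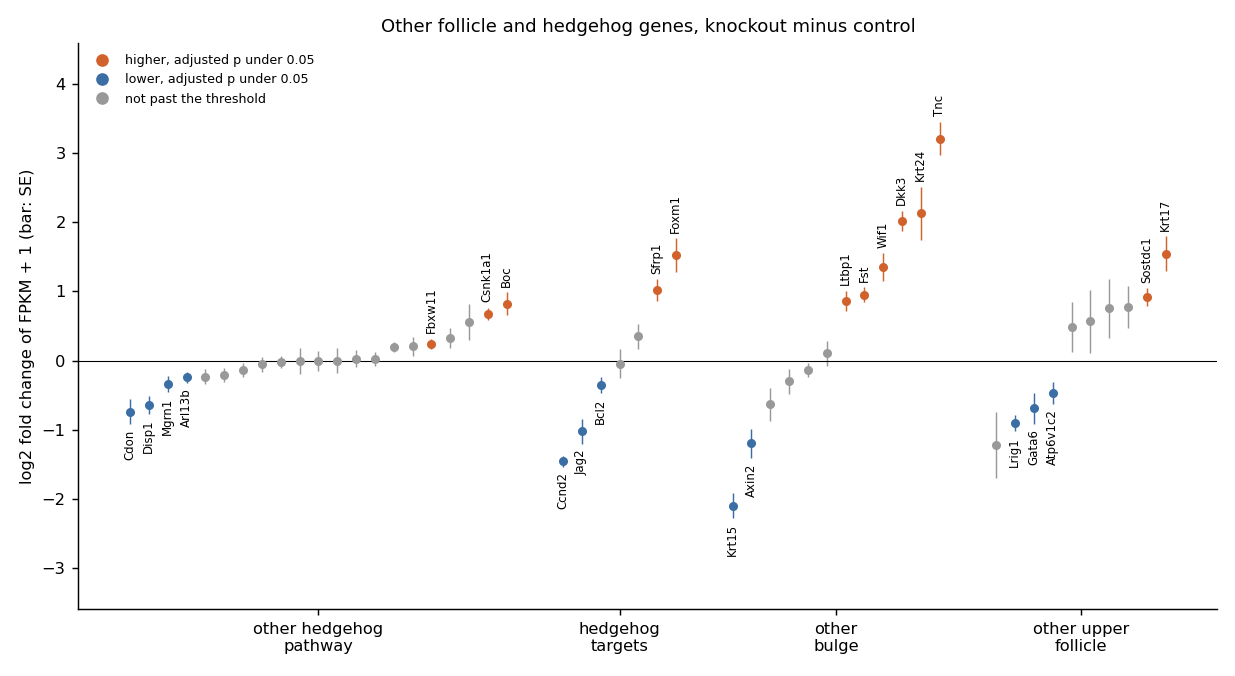
Log2 fold change (knockout minus control, of FPKM + 1; bars are SE) of the tested genes of 4 other lists, in order of size within each list, from 3 samples per genotype, with names where the adjusted p was under 0.05. Every list has genes on both sides of 0, from Krt15 at -2.10 to Tnc at 3.21.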

How the data were processed

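RNA-seq of back epidermis, 3 control and 3 Spry1_KO samples grouped by title, was used. Library input was 0.4 ug RNA, per the labels' protocols. The authors deposited FPKM values for 54532 genes. The submitters' processing notes name HISAT2 2.0.5, featureCounts 1.5.0-p3 and GRCm38. Which annotation, strand setting and FPKM formula were used is not given in the sources used here. Overlapping and antisense genes may therefore share reads, and FPKM moves with the total chosen for scaling.

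Gene IDs were looked up in GENCODE M21 (GRCm38; 54495 found) for positions and exon lengths. Multiplied by exon length, 97.9% to 98.1% of values were whole multiples of 1 step per sample (tolerance 0.1 reads), which gave the recovered reads; genes with few reads are imprecise.

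The test was limma 3.58.1 (R 4.3.3) on log2(FPKM + 1) with a variance trend and a genotype term, two-sided, over genes averaging 1 FPKM or more, with Benjamini-Hochberg adjustment over all of them at 0.05. Fold changes on this scale understate those of low genes; ratios are of mean FPKM. The script was tested on simulated data. The genes and lists were chosen with earlier results of these data known, and no test was made over a list. From the list of other upper follicle genes, 1 gene is not reported here. Named were Spry1, all 32 genes and up to 4 genes per direction with the lowest p of each other list. Up to 4 abundant genes of each marker list were named too. Ptprc, Csf1r, Itgam, Col1a2, Col3a1, Ccnd1, Itga6, Trp63 and the hair keratins were chosen after their values were seen. Alternatives were a pseudocount of 0.1, a filter of 0.1 FPKM or none, median-ratio scaling, equal FPKM sums (TPM scaling), limma-voom on recovered reads, array weights, a replicate block, and samples left out. Ratios between genes used exact permutation (scipy 1.17.1). Promoters came from RefSeq.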

Additional observations from a re-analysis of the deposited data

How the results depend on the processing

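Of the 27 tested follicle and hedgehog genes, 14 rose and 3 fell. Leaving out 1 sample gave 10 to 15 higher and 1 to 2 lower, and 3112 to 3977 higher and 2424 to 3313 lower genes in all. Without a filter 1 was lower, and with equal FPKM sums 2038 of all genes were higher. Deviations of same-numbered samples correlated at -0.098, -0.111 and -0.125, and those of differently numbered samples at -0.043 to 0.147. With 3 samples per group these values cannot settle whether the replicate numbers pair the samples. The replicate block gave 3216 higher and 2618 lower genes, and 14 higher and 1 lower of the 27. Signs of log2 fold changes turned for 9 of the named genes that were tested, of which only Fbxw11 had passed (-0.025 with equal FPKM sums). With 1 sample left out, Lhx2 ran from -0.36 to 0.067, Plet1 from -0.16 to 0.065, Crabp1 from -0.37 to 0.18, Krt18 from -0.57 to 0.25, Krt8 from -0.98 to 0.20, Scd1 from -0.15 to 0.64, Ccnd1 from -0.21 to 0.15 and Krt75 from -0.13 to 0.43. Krt18 was 0.39 with a pseudocount of 0.1, 0.44 in limma-voom and 0.47 with array weights; with array weights Scd1 was -0.098 and Ccnd1 0.13, and with equal FPKM sums Krt75 was -0.091. Without Control replicate 3 and Spry1_KO replicate 2, Krt8 was 0.61, Scd1 -0.16 and Krt75 -0.34. The cause was not tested. Depth limits Shh, Hhip, Fgf5 and Msx1, at 0 to 29 reads per sample.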

Other observations

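Of 23 genes of the hair matrix, inner root sheath and shaft, 19 averaged less than 1 FPKM and 4 were tested: Hoxc13 and Tchh rose (2.10 to 4.83 and 1.75 to 2.87 FPKM), Gata3, a factor of the inner root sheath and of suprabasal epidermis, fell from 88.9 to 18.4 FPKM (adjusted p of 9.78e-05 in limma), and Krt75 read 20.9 and 24.1 FPKM. Tchh lost its call with equal FPKM sums (limma adjusted p of 0.22), in limma-voom (0.0644), and when leaving out Control replicate 1 (0.0993), Control replicate 2 (0.109), Spry1_KO replicate 1 (0.0693) or Spry1_KO replicate 2 (0.111). The hair shaft keratin genes Krt33a and Krt35 had 18, 20 and 14 reads and 10, 12 and 7 reads in the controls and 0 in every knockout sample, while Krt73, of the inner root sheath, had 4, 0 and 1 reads in the controls and 65, 34 and 48 in the knockouts, and Krt83 had 6, 13 and 2 against 32, 42 and 35. These 4 keratins, chosen after their values were seen, differed in both directions at levels of at most 1.49 FPKM.

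The Merkel cell markers Krt8 and Krt18 were high in Control replicate 3 (5.19 and 6.46 FPKM) and Spry1_KO replicate 3 (3.10 and 3.09 FPKM) and at most 0.757 FPKM in the other samples. Rspo3, on the dermal papilla list, fell from 3.23 to 0.0619 FPKM (adjusted p of 0.000663 in limma), while Enpp2 rose from 0.297 to 1.91 FPKM (0.000744). Rspo3 met the filter of 1 FPKM only through the controls and Enpp2 only through the knockouts. Of the 10 genes on that list Alx4, Fgf7 and Sox2 were at 0 in at least 1 sample. Of 7 smooth muscle markers only Acta2 was tested, and it rose from 1.30 to 3.94 FPKM (adjusted p of 0.00758 in limma), while Des averaged 1.06 and 0.0839 FPKM. The 7 summed to 2.86 to 3.19 FPKM in controls and 3.42 to 6.11 in knockouts, and skeletal muscle markers to 17.8 to 66.4 and 3.89 to 5.84. The 7 melanocyte markers, all higher in the knockouts, summed to 9.11 to 11.9 and 214 to 219 FPKM. Of them Mlana, Tyr, Kit and Sox10 met the filter of 1 FPKM only through the knockouts.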
